A study of Rattus norvegicus with 18 samples.

Results

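Gene expression in the extensor digitorum longus (EDL), which lifts the toes and lies at the front of the lower leg, was compared between rats given experimental autoimmune myasthenia gravis (EAMG) by immunization and control rats given adjuvant alone. Its 6 arrays, 3 EAMG and 3 control, were taken by their titles from a series of 18 arrays, in which the other 12 held the diaphragm (DIA) and the extraocular muscles (EOM) of the same kinds of rat. Female Lewis rats aged 6 to 8 weeks were immunized once. EAMG rats received the acetylcholine receptor (AChR) of Torpedo, an electric ray, 40 µg for each rat, emulsified in complete Freund's adjuvant (CFA) to which 0.5 mg of mycobacterium had been added. Control rats received the same emulsion without AChR, so both groups carried the adjuvant and its mycobacterium. Muscle was taken at week 6. The RNA on an array came from a pool of rats, whose number the sources give as 3, as 4 or as 4 to 5. Nothing is known here of single rats within a pool. The p values below measure the spread between pools, taken over all 3 muscles unless the EDL arrays alone are named. The paper on these arrays describes all 3 muscles as harvested from the pooled rats, so arrays of different muscles may come from the same animals. The main p values take no account of this.

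EAMG is a model of myasthenia gravis, in which antibodies bind the AChR of the endplate, the spot on the muscle fibre where the nerve ends, and weaken the signal from nerve to muscle. Fibres of the EDL are mostly fast fibres, which contract quickly and live largely on glycolysis. A muscle that loses use, nerve signal or nutrition breaks down its proteins through the proteasome and the lysosome, and glucocorticoid hormones drive the same programme by switching on target genes through their receptor. Fast fibres are known to lose more mass than slow fibres under glucocorticoids and fasting.

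The values were GCOS signals, in which the probe pairs of each probe set are summarized and every array is scaled to one target intensity. A probe set, a group of short probes for one transcript, was tested when its signal reached 400 on at least 1 of the 6 EDL arrays. This kept 10348 of 31042 probe sets and 6687 genes with a symbol of their own, each read from its brightest probe set. The last probe set kept had a highest signal of 400.04 and the first left out one of 399.96. Median signals were 138 to 142 on the control and 129 to 133 on the EAMG arrays, and 27.9% to 28.6% of all probe sets reached 400. Probe sets at both ends of GAPDH give a sign of RNA breakdown, and the signal at the 3' end divided by that at the 5' end was 1.06 to 1.23 on the control and 1.13 to 1.18 on the EAMG arrays. Myh4, the myosin heavy chain of the fastest fibres, fitted the label. Its signals were 32051 to 45958 in EDL, 2191 to 11560 in DIA and 20170 to 30510 in EOM.

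One EDL array, EAMG 2, stood apart by its slow fibre genes. Myh7, the myosin heavy chain of slow fibres, read 22637, 26168 and 15533 on the control arrays and 21749.9, 48748 and 21544 on the EAMG arrays. Only EAMG 2 was high, and the other EAMG arrays lay within the control range. Tnnt1, the slow troponin T, read 6353, 7243 and 6820.1 against 6026, 31641 and 6802, and its log2 change turned from 0.68 to -0.09 without EAMG 2, as those of Myl3, Atp2a2 and Tnni1 also turned below 0. Tpm3, the slow tropomyosin, read 1543, 1950.4 and 1631 against 2052, 18729 and 1648. Over the 11 slow fibre genes tested, of 12 on the array, the summed signal was 312900 on EAMG 2 and 96710 to 117700 on the control arrays, and their median log2 signal relative to the control mean was 1.50 on EAMG 2 and 0.00 or -0.01 on the other EAMG arrays. EAMG 2 was the highest array in 10 of the 11, and the other was Myh6, a heart and slow fibre myosin, at 538, 606 and 309 against 399, 490.1 and 234. Fast fibre genes had a median of -0.16 on that array, which was the highest in 1 of 16, Smtnl1, at 8403, 8642 and 9003 against 10233, 15667 and 11291. In whole muscle, more or fewer cells of a type and more or less RNA in each of them cannot be told apart. Results are therefore also given without EAMG 2, and the part of this array in a result was not tested beyond that.

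**Figure D1:**
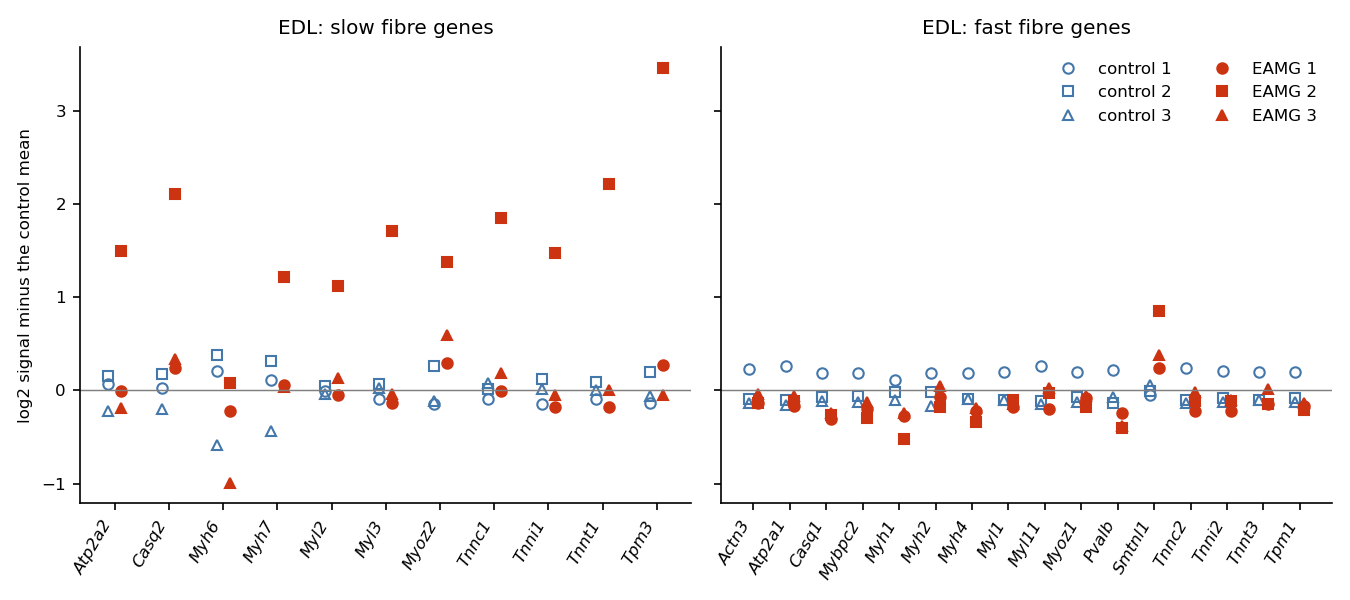
Signals of the 11 slow fibre genes (left) and 16 fast fibre genes (right) tested in EDL. The y axis is the log2 signal minus the mean log2 signal of the control arrays, open blue symbols are the 3 control arrays and filled red symbols the 3 EAMG arrays. EAMG 2 (red squares) lies above every other array in 10 of the 11 slow fibre genes, all but Myh6, and in 1 of the 16 fast fibre genes, Smtnl1.

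In EDL, 439 probe sets rose (4.24% of those tested) and 421 fell (4.07%) in EAMG, tested with limma on log2 signals in 1 fit of the 18 arrays at an adjusted p under 0.05. By at least 2-fold, 111 rose and 98 fell. Counted by gene, 299 rose (4.47%) and 246 fell (3.68%), and the median log2 change over all genes was 0.02. The 3 EAMG arrays lay wholly above or wholly below the 3 control arrays in 837 of the 860 probe sets that passed, and in 2761 of all probe sets tested (26.7%). All 860 kept their sign without EAMG 2, which the separate groups fix in advance for the 837. In that fit 98 genes rose (1.47%) and 68 fell (1.02%). Of the 439 rises and 421 falls, 141 and 112 also passed in that fit, and 101 and 67 passed in each of the 6 fits that left out 1 EDL array. The number of genes that rose was 89 without control 1, 98 without EAMG 2, 106 without EAMG 3, 138 without control 2, 302 without control 3 and 452 without EAMG 1. The number that fell was 58 without control 1, 68 without EAMG 2, 72 without EAMG 3, 81 without control 2, 285 without control 3 and 396 without EAMG 1. Counts within gene lists are to be read against these, and against the shares of 4.47% higher and 3.68% lower over all genes. By those shares a single call in a list is no result about the list. The fit on 18 arrays takes the spread between arrays from all 6 groups. The median SD on the log2 scale was 0.199 in the EDL EAMG and 0.175 in the EDL control arrays. In the DIA and EOM groups it was 0.113 to 0.192, so the shared spread can be smaller than that of EDL. With the 6 EDL arrays alone 7 probe sets rose and 0 fell (1018 and 1053 at an unadjusted p under 0.05), among the 7 Cdkn1a, Fkbp5 and Nfkbia, and with replicate numbers as blocks in that small fit 184 rose and 191 fell. Without the signal minimum, which brought all 31042 probe sets into the adjustment, 76 rose and 82 fell. Of the 116 named genes and transcripts that passed, 4 passed with the EDL arrays alone and 37 without the signal minimum. In the EDL arrays alone with replicate numbers as blocks 53 of the named lost their call, and in the EDL arrays alone without EAMG 2 113 did. Losses in these fits are not repeated beside each gene, except for some genes of low signal. Settings other than these that ended the call of a named gene stand beside it, with limma's adjusted p in parentheses. The low poly-A arrays among them are DIA EAMG 2 and EOM EAMG 2, on which poly-A RNA added before labelling was low.

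The size of the response differed between the EAMG arrays. EAMG 1 was the EAMG array nearest to the controls in 310 of the 439 rises and 317 of the 421 falls. Over the rises, the median distance from the control mean on the log2 scale was 0.52 on EAMG 1, 0.79 on EAMG 2 and 0.81 on EAMG 3. Over the falls it was -0.50, -0.83 and -0.86 on the same arrays. The same arrays had chosen these probe sets, so the distances are a description.

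**Figure D2:**
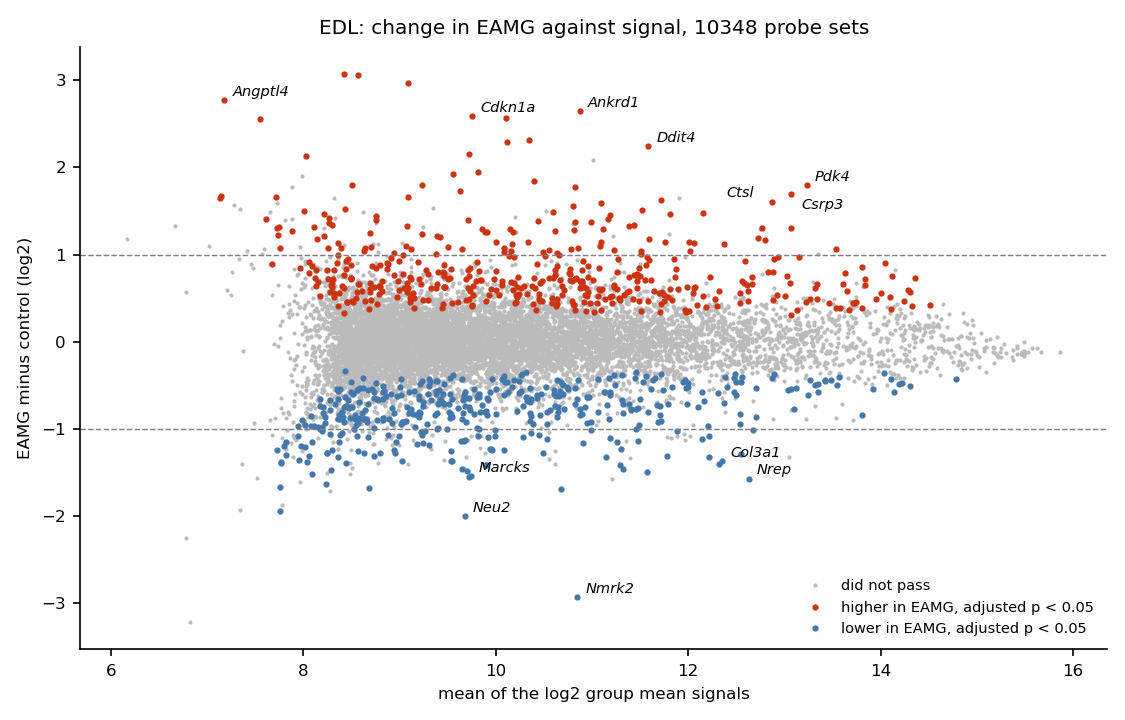
Change in EAMG against signal for the 10348 EDL probe sets tested. The x axis is the mean of the log2 group mean signals, the y axis the EAMG minus control log2 difference, red and blue points passed limma as higher and lower, and dashed lines mark a 2-fold change. Rises and falls occur across the range of signals, and Nmrk2 is the largest fall that passed, at -2.92.

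**Figure D3:**
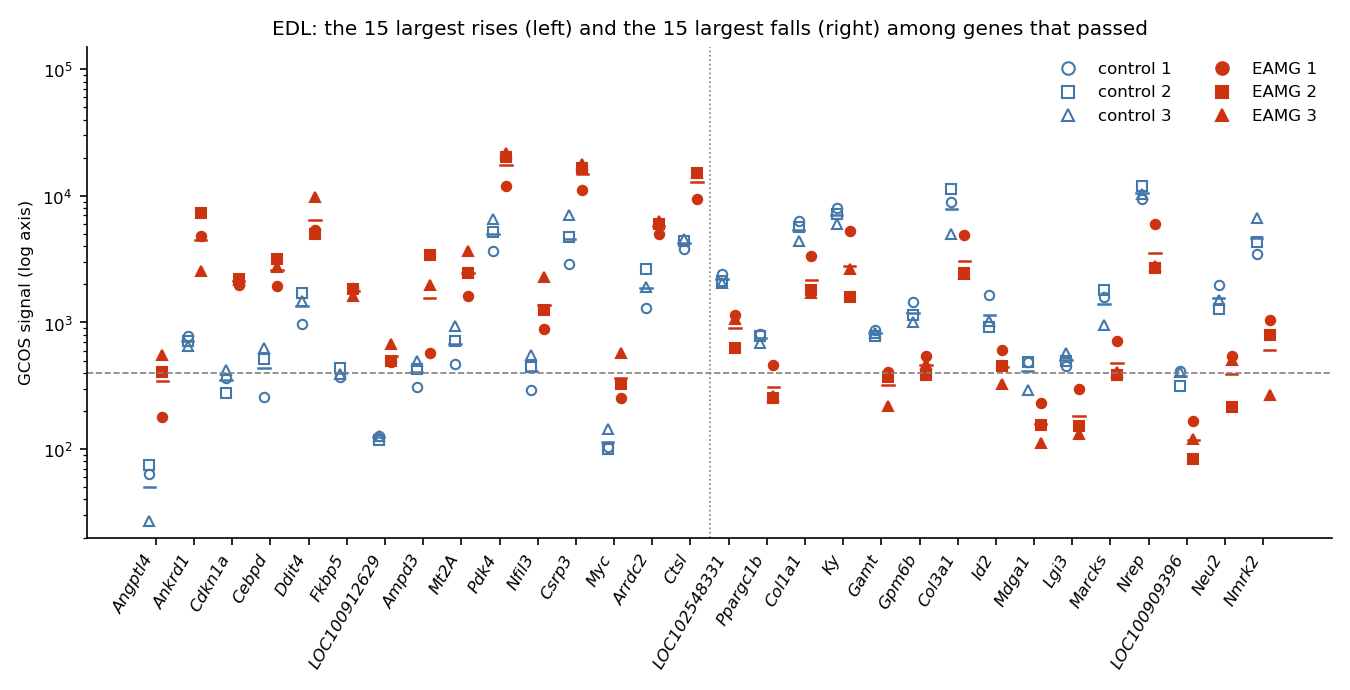
Signals on each EDL array of the 15 genes with the largest rises and the 15 with the largest falls among genes that passed and whose groups did not overlap, which the choice of genes fixes. The y axis is the GCOS signal on a log scale, open blue and filled red symbols are the control and EAMG arrays, short lines the mean of the log2 signals, and the dashed line the signal of 400. EAMG 1 (red circles) is often the EAMG array closest to the controls.

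The most frequent rises in EDL were in genes that the glucocorticoid receptor is known to switch on. Of 25 such genes tested, 18 rose and 0 fell (0 also at an unadjusted p under 0.05), with a median log2 change of 0.97 beside 0.02 for all genes. Their median relative to the control mean was -0.13, 0.10 and 0.13 on the control arrays and 0.69, 1.18 and 1.09 on the EAMG arrays, so the groups did not overlap and EAMG 1 was the lowest EAMG array. Changes of the members that passed ran from 0.62 to 2.77. The number of glucocorticoid targets that rose was 12 without EAMG 2, EAMG 3 or control 1, 15 without control 2, 17 without control 3 and 18 without EAMG 1, and the median without EAMG 2 was 0.97. The list was written with earlier results of these arrays known, so its count is not independent evidence.

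Cdkn1a, which encodes the cell cycle inhibitor p21, read 367, 277 and 422 on the control and 1979, 2197 and 2158 on the EAMG arrays. It rose by 2.59 on the log2 scale (SE 0.19, 6.03-fold, adjusted p = 5.17e-06), and no EAMG array came near the highest control. Fkbp5, a chaperone that restrains the glucocorticoid receptor, read 369, 434 and 394 against 1869, 1839 and 1630.5 and rose by 2.16 on the log2 scale (SE 0.19, 4.46-fold, adjusted p = 3.82e-05). The EAMG arrays were nearly equal for both genes, EAMG 2 included. Cebpd, a transcription factor of the acute phase response, read 256, 512 and 628 against 1957, 3187 and 2744 and rose by 2.57 on the log2 scale (SE 0.33, 5.92-fold, adjusted p = 0.000886). Ddit4, also called REDD1, restrains the growth kinase mTORC1. It read 966, 1724 and 1491 against 5401, 5007 and 9821 and rose by 2.25 on the log2 scale (SE 0.29, 4.75-fold, adjusted p = 0.000886), with EAMG 3 the highest array.

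Angptl4, a secreted inhibitor of lipoprotein lipase, had the largest rise of the genes that passed, but from a low level. Its signals were 63.2, 75.0 and 27.0 on the control and 179, 409 and 556 on the EAMG arrays, and only EAMG 2 and EAMG 3 passed 400. It rose by 2.77 on the log2 scale (SE 0.51, 6.82-fold, adjusted p = 0.006), and its change was 1.56 with 100 added to each signal. Errfi1, an inhibitor of the receptor of epidermal growth factor, read 809, 1098 and 1218 against 2531, 2701 and 4033 and rose by 1.56 on the log2 scale (SE 0.20, 2.94-fold, adjusted p = 0.000892). Arrdc2, an arrestin-like adaptor, read 1312, 2635 and 1905 against 5035, 5995 and 6387 and rose by 1.62 on the log2 scale (SE 0.29, 3.08-fold, adjusted p = 0.00525). The groups of all 3 genes were well apart, and each passed in all 6 fits that left out 1 array. Sesn1, a stress sensor that restrains mTORC1, read 1220.5, 1353 and 1478 against 1873, 4532 and 5406, with EAMG 1 close to the controls. It rose by 1.41 on the log2 scale (SE 0.30, 2.66-fold, adjusted p = 0.012). Sesn1 did not pass without EAMG 2, EAMG 3 or control 1 (adjusted p = 0.0575 to 0.0599). Some classic targets did not pass. They are named here after their values were seen. Tsc22d3, also called GILZ, had a log2 change of 0.23 (adjusted p = 0.377), and Sgk1, a kinase of ion transport, one of -0.12 (adjusted p = 0.727). Nr3c1, the glucocorticoid receptor itself, had a log2 change of -0.21 (adjusted p = 0.372).

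**Figure D4:**
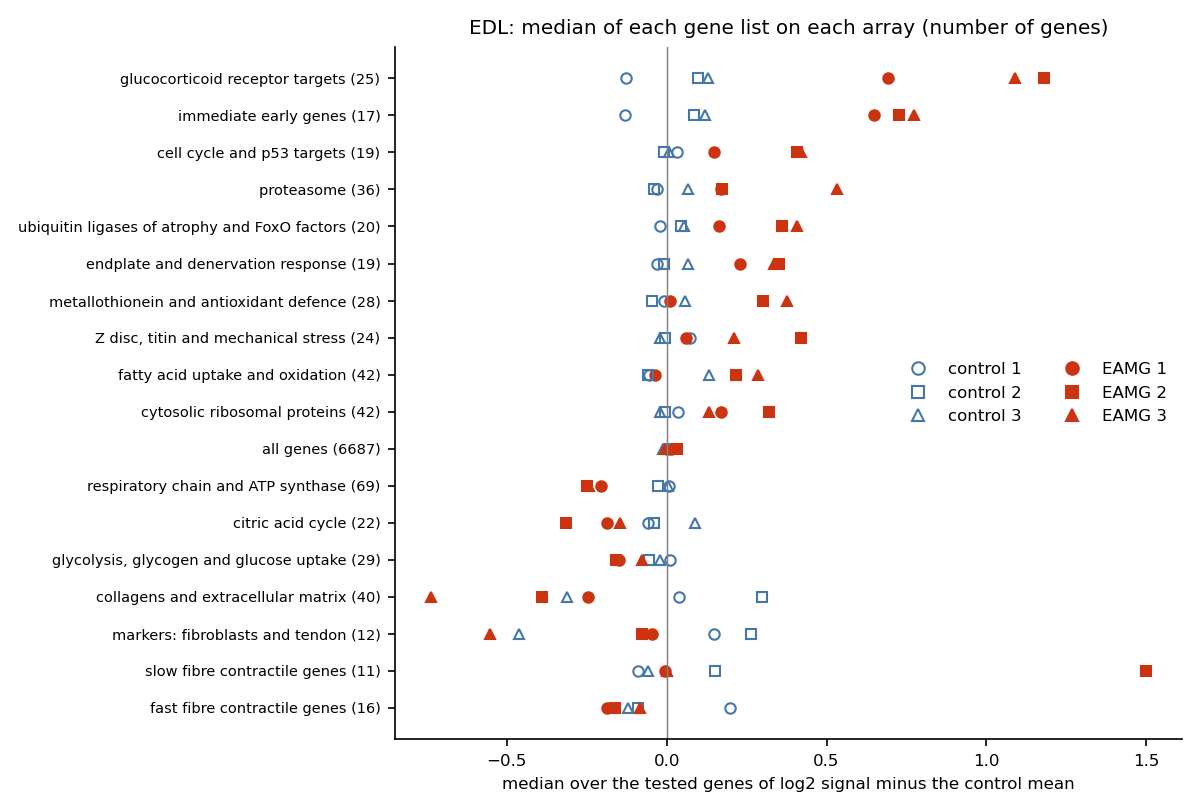
Median of each gene list on each EDL array. The x axis is the median over the tested genes of the log2 signal minus the control mean, open blue symbols are the control arrays and filled red symbols the EAMG arrays. The glucocorticoid targets lie at 0.69 to 1.18 on the EAMG arrays, the collagens and matrix genes at -0.74 to -0.25, and all genes within 0.04 of 0.

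Genes of protein breakdown rose in part. Among 20 ubiquitin ligases of atrophy and FoxO factors, 4 rose and 0 fell (0 at an unadjusted p under 0.05), with a median of 0.36. Trim63, or MuRF1, is a ligase that tags muscle proteins for the proteasome. It read 3831, 4352 and 4631 on the control and 6079, 11948 and 16185 on the EAMG arrays, and rose by 1.31 on the log2 scale (SE 0.35, 2.48-fold, adjusted p = 0.0335). The EAMG arrays spread widely, with EAMG 1 nearest to the controls. Eif4ebp1, which blocks the start of translation and is induced by FoxO factors, read 1733, 1951 and 2261 against 2604, 5038 and 6779 and rose by 1.18 on the log2 scale (SE 0.25, 2.27-fold, adjusted p = 0.0127). Foxo3, a transcription factor that switches on ligases of atrophy, read 1248, 1307 and 990 against 1325, 2559 and 2334, with EAMG 1 only just above the highest control. It rose by 0.76 on the log2 scale (SE 0.19, 1.70-fold, adjusted p = 0.026), and Cblb, a ligase that targets insulin signalling, rose by 0.59 (adjusted p = 0.0291). The number of these genes that rose was 0 without EAMG 2, EAMG 3 or control 1, 2 without control 2 or control 3 and 6 without EAMG 1. Trim63 did not pass without EAMG 2, EAMG 3, control 1 or control 2 (adjusted p = 0.0809 to 0.148), and Eif4ebp1 did not pass without EAMG 2, EAMG 3 or control 1 (adjusted p = 0.0576 to 0.065). Foxo3 did not pass without EAMG 2, EAMG 3, control 1, control 2 or control 3 (adjusted p = 0.0501 to 0.115). Cblb did not pass without EAMG 2, EAMG 3, control 1 or control 3 (adjusted p = 0.0675 to 0.121), nor with array weights (0.0748).

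The promoter of Trim63 is shown for its glucocorticoid response element, the paired half-sites that the receptor binds. Among the promoter windows found for 27 glucocorticoid targets and 17 ligases and FoxO factors, only that of Trim63 held the full motif. The motif searched was GNACANNNTGTNC, which reads alike on both strands. It was found in 147 of 33469 RefSeq promoter windows of 300 bases, 250 before and 50 after the start, which is 0.439%. It was in 1 of 17 windows of the ligases and FoxO factors and in 0 of 34 windows of the targets. The 250 bases before the start lie at chr5:151816986-151817235 of GRCr8, on the plus strand, with the motif in capitals. A match of letters is a description of the sequence, and binding was not measured.

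Trim63 promoter: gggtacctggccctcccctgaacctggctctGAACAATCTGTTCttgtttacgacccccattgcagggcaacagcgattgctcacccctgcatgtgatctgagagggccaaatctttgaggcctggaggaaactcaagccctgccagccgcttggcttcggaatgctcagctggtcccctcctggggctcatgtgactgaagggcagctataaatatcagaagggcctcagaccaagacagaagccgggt

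Of 36 proteasome genes, 6 rose and 0 fell (0 at an unadjusted p under 0.05). Their median on the arrays was -0.03, -0.04 and 0.07 on the control arrays and 0.17, 0.17 and 0.53 on the EAMG arrays, so EAMG 3 was the highest. Psme4, an activator of the proteasome, read 4044, 4217 and 4932 against 5674, 9029 and 11364 and rose by 0.93 on the log2 scale (SE 0.20, 1.91-fold, adjusted p = 0.0128). Psmd8, Psmd4 and Psmd2, parts of the cap that takes in tagged proteins, rose by 0.85, 0.71 and 0.56 (adjusted p = 0.0184, 0.0209 and 0.0248). The number of proteasome genes that rose was 0 without EAMG 3 or control 1, 1 without control 2, 2 without EAMG 2, 6 without control 3 and 10 without EAMG 1. Psme4 did not pass without EAMG 2, EAMG 3 or control 1 (adjusted p = 0.0568 to 0.0631), and Psmd8 did not pass without EAMG 2, EAMG 3, control 1 or control 2 (adjusted p = 0.0601 to 0.0911). Psmd4 did not pass without EAMG 3, control 1 or control 2 (adjusted p = 0.0745 to 0.0957), and Psmd2 did not pass without EAMG 3, control 1 or control 2 (adjusted p = 0.0663 to 0.116).

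In the lysosome and autophagy list, 4 of 33 genes rose and 0 fell (1 at an unadjusted p under 0.05), with a median of 0.17. Ctsl, the lysosomal protease cathepsin L, read 3786, 4371 and 4598 on the control and 9421, 15134 and 15122 on the EAMG arrays. It rose by 1.61 on the log2 scale (SE 0.20, 3.05-fold, adjusted p = 0.000886), and its second probe set rose by 1.27 (adjusted p = 0.00267). The lowest EAMG array was above the highest control by more than the whole control range. Gabarapl1, which joins the growing autophagosome, read 1280.4, 1361 and 1138 against 1873, 2949 and 3340.5 and rose by 1.07 on the log2 scale (SE 0.18, 2.10-fold, adjusted p = 0.00406). Cst3, an inhibitor of cathepsins, rose by 0.67 (adjusted p = 0.00935) and Map1lc3a, of the same family as Gabarapl1, by 0.62 (adjusted p = 0.0361). Cst3 did not pass without control 1 (adjusted p = 0.0503), and Map1lc3a did not pass when any 1 EDL array was left out (adjusted p = 0.0667 to 0.118), nor with quantile normalization (0.0601). The number of genes that rose in this list was 2 without control 1, 3 without EAMG 2, EAMG 3 or control 2, 4 without control 3 and 5 without EAMG 1. None of 9 genes for calpains and other muscle proteases passed limma (2 higher and 0 lower at an unadjusted p under 0.05). Capn2, a calpain found in most cells, had a log2 change of 0.52 (adjusted p = 0.0608), and passed with replicate numbers as blocks (adjusted p = 0.0337), without EAMG 1 (adjusted p = 0.0148) and with a trended prior (adjusted p = 0.0467).

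Genes of the Z disc, the anchor between sarcomeres, and of mechanical stress rose strongly in part. Of the 24 genes of this list 6 rose and 0 fell (1 at an unadjusted p under 0.05). Their median was 0.25, or 0.13 without EAMG 2. Ky and Dnajb6, Z disc genes that fell, were not on the list and are described below. Ankrd1, an ankyrin repeat protein that binds titin and shuttles to the nucleus, read 788, 713 and 653 on the control and 4791, 7388 and 2529 on the EAMG arrays. It rose by 2.64 on the log2 scale (SE 0.45, 6.25-fold, adjusted p = 0.00416), with a second probe set at 2.29 (adjusted p = 0.0222). Csrp3, the muscle LIM protein of the Z disc, read 2917, 4703 and 7045 against 11183, 16541 and 17739.7 and rose by 1.70 on the log2 scale (SE 0.32, 3.24-fold, adjusted p = 0.00745). EAMG 2 led Ankrd1 but not Csrp3, and without it the adjusted p values were 0.0242 and 0.0345. Xirp1, which binds actin at sites of damage, read 2916, 3566 and 4255 against 6853, 10150.3 and 6479 and rose by 1.12 on the log2 scale (SE 0.19, 2.17-fold, adjusted p = 0.00454). Pdlim5, an adaptor of the Z disc, had some of the highest signals, with 11649.8, 11590.2 and 13756 against 21468, 23689.5 and 23996. Its 3 EAMG arrays were close together and it rose by 0.91 on the log2 scale (SE 0.13, 1.87-fold, adjusted p = 0.00116). The number of Z disc genes that rose was 5 without EAMG 2, EAMG 3, control 1 or control 3, 6 without control 2 and 9 without EAMG 1.

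Immediate early genes, which are transcribed within minutes of a stimulus, were higher in part. Of 17 tested, 5 rose and 0 fell (0 at an unadjusted p under 0.05), with a median of 0.80 and medians of -0.13, 0.09 and 0.12 on the control arrays and 0.65, 0.73 and 0.78 on the EAMG arrays. Myc, a transcription factor of growth, read 104, 99.8 and 144 against 252, 325 and 576 and rose by 1.66 on the log2 scale (SE 0.30, 3.16-fold, adjusted p = 0.0051), but only EAMG 3 reached 400. Fos, a subunit of the AP-1 factor, was even among controls at 746, 762 and 728 and read 1865, 1402 and 2173 on the EAMG arrays. It rose by 1.26 on the log2 scale (SE 0.36, 2.40-fold, adjusted p = 0.0439). Ier5, a regulator of the heat shock factor, rose by 1.26 (adjusted p = 0.0136) and Klf10, a factor induced by TGF-beta, by 1.00 (adjusted p = 0.0279). Fos did not pass when any 1 EDL array was left out (adjusted p = 0.0669 to 0.153), nor with array weights (0.0513), with quantile normalization (0.0601), with the minimum set on all 18 arrays (0.0544) or without the low poly-A arrays (0.0565). Ier5 did not pass without EAMG 2 or control 1 (adjusted p = 0.0664 to 0.074). Klf10 did not pass without EAMG 2, EAMG 3, control 1 or control 2 (adjusted p = 0.0652 to 0.12). The number of immediate early genes that rose was 1 without EAMG 2 or control 1, 2 without EAMG 3 or control 2 and 5 without EAMG 1 or control 3.

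Among cell cycle genes and targets of p53, 7 of 19 rose and 1 fell, with a median of 0.43. Gadd45a, a stress gene that also rises after denervation, read 510.5, 606 and 732 on the control and 1258, 1233 and 1998 on the EAMG arrays, and rose by 1.26 on the log2 scale (SE 0.19, 2.39-fold, adjusted p = 0.00208). Its relative Gadd45b read 299, 172 and 348 against 471, 742 and 684 and rose by 1.25 on the log2 scale (SE 0.27, 2.37-fold, adjusted p = 0.013). Both had separate groups. Gadd45b did not pass without EAMG 2, EAMG 3 or control 2 (adjusted p = 0.0582 to 0.0606). The number that rose was 2 without EAMG 3, 3 without EAMG 2 or control 1, 5 without control 2, 6 without control 3 and 10 without EAMG 1, and the number that fell 0 without EAMG 3, control 1 or control 2, 1 without EAMG 2 or control 3 and 2 without EAMG 1.

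Other large rises were in genes outside these groups. Nfil3, a repressor of the clock and of immune cells that also answers glucocorticoids, read 291, 443 and 549 against 891, 1263 and 2272 and rose by 1.73 on the log2 scale (SE 0.36, 3.31-fold, adjusted p = 0.0121). The locus LOC100912629, for which no role is given here, had even controls at 127, 118 and 128 and read 486, 492 and 673 on the EAMG arrays. It rose by 2.13 on the log2 scale (SE 0.46, 4.39-fold, adjusted p = 0.0124). Its controls were all below the signal minimum, without which LOC100912629 did not pass (adjusted p = 0.0784). Enc1, an actin-binding protein, read 381, 383 and 387 against 664, 871 and 897 and rose by 1.07 on the log2 scale (SE 0.17, 2.10-fold, adjusted p = 0.00267). Among transcripts without a symbol, 1382628_at had the largest rise, at 277, 370.3 and 510 against 948, 1782 and 1710, and rose by 1.93 (adjusted p = 0.0013). The groups of all 4 were separate, and Nfil3 did not pass without EAMG 3 or control 1 (adjusted p = 0.0608 to 0.0669) and LOC100912629 did not pass without EAMG 3 (adjusted p = 0.0574).

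Antioxidant and metal-binding genes rose in 8 of 28 cases and fell in 1. Mt2A, a metallothionein that binds zinc and copper, read 469, 719 and 938 on the control and 1630.4, 2446 and 3653 on the EAMG arrays. It rose by 1.84 on the log2 scale (SE 0.34, 3.58-fold, adjusted p = 0.006), and EAMG 3 was the highest array. Fmo2, a flavin monooxygenase, read 301, 270.2 and 227 against 647, 812 and 646 and rose by 1.40 on the log2 scale (SE 0.26, 2.64-fold, adjusted p = 0.00651). Gstm2, a glutathione transferase, read 2225, 2517 and 3580 against 6477, 4469 and 7413 and rose by 1.14 on the log2 scale (SE 0.21, 2.20-fold, adjusted p = 0.00569). Gpx3, the secreted glutathione peroxidase, read 2669.8, 3852 and 2254 against 5275, 6528 and 5799 and rose by 1.04 on the log2 scale (SE 0.16, 2.05-fold, adjusted p = 0.00267). In none of these genes did the groups overlap, and all 4 passed in each fit that left out 1 array. The number of genes that rose in this list was 5 without EAMG 2 or EAMG 3, 6 without control 1 or control 2, 9 without control 3 and 10 without EAMG 1, and the number that fell 0 without EAMG 2 and 1 without EAMG 1, EAMG 3, control 1, control 2 or control 3.

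The promoter of Mt2A is shown for its metal response elements, the sites through which metallothionein genes are known to answer zinc. The letters searched were TGCACNC and TGCGCNC on both strands. They occurred in 8110 of 33469 RefSeq windows (24.2%), in 3 of 3 windows of metallothionein genes, and 4 times in the 250 bases before the start of Mt2A. These bases lie at chr19:10838709-10838958 of GRCr8, are written 5′ to 3′ on the minus strand and have the matches in capitals. The motif is common and its match says nothing of use in EDL.

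Mt2A promoter: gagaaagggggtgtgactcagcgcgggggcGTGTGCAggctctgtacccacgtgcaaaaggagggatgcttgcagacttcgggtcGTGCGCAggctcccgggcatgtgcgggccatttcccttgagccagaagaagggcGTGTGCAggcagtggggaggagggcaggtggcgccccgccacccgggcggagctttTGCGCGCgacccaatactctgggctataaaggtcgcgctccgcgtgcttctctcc

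Single enzymes of fat use rose in EDL. Of 42 genes of fatty acid uptake and oxidation 6 rose (14.3%, beside 4.47% of all genes) and 1 fell (2.38%, beside 3.68%), with a median of 0.14. Pdk4, a kinase that closes the entry of pyruvate into the citric acid cycle, read 3651, 5185 and 6619 on the control and 11984, 20228 and 21686 on the EAMG arrays. It rose by 1.80 on the log2 scale (SE 0.25, 3.48-fold, adjusted p = 0.00117), and even the lowest EAMG array was far above the highest control. Pnpla2, which takes the first fatty acid off stored triglyceride, read 1592, 1682 and 1931 against 3423, 5242 and 4672 and rose by 1.34 on the log2 scale (SE 0.18, 2.53-fold, adjusted p = 0.00101). Mlycd, which removes the malonyl-CoA that holds fatty acids out of mitochondria, read 685, 674 and 779 against 1169.9, 1908 and 2362 and rose by 1.29 on the log2 scale (SE 0.24, 2.45-fold, adjusted p = 0.006). These 3 genes passed in all 6 fits that left out 1 array. The number of fatty acid genes that rose was 4 without EAMG 2, EAMG 3, control 1 or control 2, 5 without control 3 and 9 without EAMG 1, and the number that fell 0 without EAMG 2, EAMG 3 or control 1 and 1 without EAMG 1, control 2 or control 3.

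A few genes of glucose use fell. Of 29 genes of glycolysis, glycogen and glucose uptake 0 rose (1 at an unadjusted p under 0.05) and 3 fell, with a median of -0.12. Fbp2, the muscle fructose-bisphosphatase, works against the direction of glycolysis. It read 3848, 3867 and 4018 on the control and 2803, 1506 and 1787 on the EAMG arrays and fell by 1.00 on the log2 scale (SE 0.18, 1.99-fold, adjusted p = 0.0051). The controls were nearly equal and EAMG 1 was the highest EAMG array. Gpd1, which joins glycolysis to lipid synthesis, fell by 0.61 (adjusted p = 0.037) and Gpi, the second enzyme of glycolysis, by 0.50 (adjusted p = 0.0396). Gpd1 did not pass without EAMG 2, EAMG 3, control 1, control 2 or control 3 (adjusted p = 0.0754 to 0.155). Gpi did not pass without EAMG 2, EAMG 3, control 1, control 2 or control 3 (adjusted p = 0.0525 to 0.16). The number of these genes that fell was 1 without EAMG 2, EAMG 3, control 1, control 2 or control 3 and 5 without EAMG 1.

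Most genes of the respiratory chain and of the citric acid cycle had slightly lower signals in EAMG. Of 69 genes of the respiratory chain and ATP synthase, 67 lay below 0, 6 fell and 0 rose (0 at an unadjusted p under 0.05), with a median of -0.23. The median on the arrays was 0.01, -0.03 and 0.00 on the control arrays and -0.21, -0.25 and -0.24 on the EAMG arrays, so the 3 EAMG arrays lay together below the controls. In 44 of the 69 genes every EAMG array was below every control array. Over all 6687 genes 844 were separated in this way and 3202 lay below 0. With replicate numbers as blocks 11 fell, and the number that fell was 0 without EAMG 2, EAMG 3, control 1 or control 2, 3 without control 3 and 8 without EAMG 1. Cox7a1, the muscle form of a subunit of cytochrome oxidase, had the largest fall of those that passed. It read 1486, 1263 and 1569 against 873, 391 and 902 and fell by 1.09 on the log2 scale (SE 0.31, 2.12-fold, adjusted p = 0.0405). Ndufs1, of complex I, read 12108, 11777 and 13113 against 9496, 8413 and 8602 and fell by 0.48 (adjusted p = 0.028). Ndufc1 and Ndufb5, also of complex I, fell by 0.53 and 0.47 (adjusted p = 0.0294 and 0.0231). Cox7a1 did not pass without EAMG 2, EAMG 3, control 1, control 2 or control 3 (adjusted p = 0.053 to 0.162), nor with quantile normalization (0.0563) or with the minimum set on all 18 arrays (0.0502). Ndufs1 did not pass without EAMG 2, EAMG 3, control 1, control 2 or control 3 (adjusted p = 0.0623 to 0.0956), and Ndufc1 did not pass without EAMG 2, EAMG 3, control 1, control 2 or control 3 (adjusted p = 0.0521 to 0.13). Ndufb5 did not pass without EAMG 2, EAMG 3, control 1 or control 2 (adjusted p = 0.0585 to 0.103).

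In the citric acid cycle 2 of 22 genes fell and 0 rose (0 at an unadjusted p under 0.05), and 21 lay below 0. Idh3a, a subunit of isocitrate dehydrogenase, read 12523, 12442 and 13521 against 10733, 8063 and 9556 and fell by 0.45 (adjusted p = 0.0204). Sdhd, of succinate dehydrogenase, fell by 0.36 (adjusted p = 0.037). Idh3a did not pass without EAMG 2, EAMG 3, control 1 or control 2 (adjusted p = 0.0522 to 0.0922). Sdhd did not pass without EAMG 2, EAMG 3, control 1, control 2 or control 3 (adjusted p = 0.0809 to 0.135), nor with array weights (0.0542). Citric acid cycle genes that fell numbered 0 without EAMG 2, EAMG 3, control 1 or control 2, 1 without control 3 and 2 without EAMG 1. Ppargc1b, a coactivator of mitochondrial genes, fell clearly. Its signals were 809.6, 776 and 683 on the control and 462, 251 and 260.4 on the EAMG arrays, it fell by 1.28 on the log2 scale (SE 0.19, 2.42-fold, adjusted p = 0.00208), and it passed in every fit that left out 1 array. It was the only one of 21 genes of mitochondrial biogenesis and dynamics to pass. Polrmt, the RNA polymerase of mitochondria, chosen after its values were seen, had a log2 change of 0.63 (adjusted p = 0.0598) and passed with replicate numbers as blocks (adjusted p = 0.0168), so that 1 gene of this list then rose. Without EAMG 1 1 rose.

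The largest fall in EDL was that of Nmrk2, a kinase of muscle that feeds nicotinamide riboside into the synthesis of NAD. Its signals were 3447, 4317 and 6658 on the control and 1048, 801 and 269 on the EAMG arrays, with the lowest control above the highest EAMG array by more than the whole EAMG range. It fell by 2.92 on the log2 scale (SE 0.47, 7.60-fold, adjusted p = 0.00267). Gamt, the last enzyme of creatine synthesis, read 869, 779 and 821 against 403, 369 and 219 and fell by 1.36 on the log2 scale (SE 0.20, 2.58-fold, adjusted p = 0.00145). Ckmt2, the mitochondrial creatine kinase of muscle, read 33588, 32705 and 32028 against 25761, 25416 and 22053 and fell by 0.43 (adjusted p = 0.0467). Ampd3, which removes the amino group of AMP, went up, at 312, 429 and 498 against 579, 3385 and 1960.3. EAMG 1 was just above the highest control while EAMG 2 and EAMG 3 were far above it. Ampd3 rose by 1.95 on the log2 scale (SE 0.44, 3.87-fold, adjusted p = 0.0162). Ampd3 did not pass without EAMG 2, EAMG 3 or control 1 (adjusted p = 0.0664 to 0.0755). Ckmt2 did not pass without EAMG 2, EAMG 3, control 1, control 2 or control 3 (adjusted p = 0.0643 to 0.168), nor with the minimum set on all 18 arrays (0.0561). Of 21 genes of purine nucleotides, creatine and NAD, 1 rose and 3 fell. With replicate numbers as blocks 2 rose, the added one being Xdh, which makes urate (adjusted p = 0.0615, blocked 0.0183), and 4 fell, with Nmnat3, an enzyme of NAD synthesis (adjusted p = 0.0725, blocked 0.044). Both are named after their values were seen. Those that rose numbered 0 without EAMG 2, EAMG 3 or control 1, 1 without EAMG 1 or control 3 and 2 without control 2, and those that fell 2 without EAMG 2, EAMG 3, control 1, control 2 or control 3 and 5 without EAMG 1.

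Of 20 genes of amino acid metabolism and transport 6 rose and 1 fell, with a median of 0.12. The transporters Slc43a1 and Slc38a3 rose by 1.02 and 0.92 (adjusted p = 0.0223 and 0.0107), and Prodh, which starts the breakdown of proline, by 1.00 (adjusted p = 0.0379). Gpt, the alanine aminotransferase, read 1468, 1553 and 1289.9 on the control and 759, 844 and 557 on the EAMG arrays and fell by 1.01 on the log2 scale (SE 0.15, 2.02-fold, adjusted p = 0.00199). The fall of Gpt held in all 6 fits that left out 1 array. Slc43a1 did not pass without EAMG 2, EAMG 3, control 1 or control 3 (adjusted p = 0.0634 to 0.0973), nor with array weights (0.0537). Slc38a3 did not pass without EAMG 2 (adjusted p = 0.0535). Prodh did not pass without EAMG 2, EAMG 3, control 1, control 2 or control 3 (adjusted p = 0.066 to 0.156), nor with array weights (0.0614). The number of amino acid genes that rose was 1 without EAMG 2, 2 without EAMG 3 or control 1, 3 without control 2 or control 3 and 7 without EAMG 1.

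Genes of the endplate, the site of the antibody attack, were read together with those of the response to denervation. Of 19 such genes 4 rose (21.1%, beside 4.47% of all genes) and 0 fell (0 at an unadjusted p under 0.05). Their median was 0.19. Besides Ankrd1 and Gadd45a these were Ncam1 and Chrnd. Ncam1, an adhesion molecule that spreads along denervated fibres, read 216, 212 and 235 on the control and 512, 595 and 373 on the EAMG arrays. It rose by 1.13 on the log2 scale (SE 0.14, 2.19-fold, adjusted p = 0.000886), and the controls were nearly equal. Chrnd, the delta subunit of the AChR, read 234, 257 and 286 against 307, 621 and 442, with EAMG 2 highest and EAMG 1 just above the controls. It rose by 0.77 on the log2 scale (SE 0.21, 1.70-fold, adjusted p = 0.0385). Chrnd did not pass without EAMG 2, EAMG 3, control 1 or control 2 (adjusted p = 0.0961 to 0.159), nor with 100 added to each signal (0.0511). Chrna1, the alpha subunit that most antibodies bind, read 429.6, 562 and 710.2 against 733, 1054 and 612. Its groups overlapped, and the log2 change was 0.49 (SE 0.19, adjusted p = 0.127). It passed without control 3 (adjusted p = 0.0473) and in no other fit that left out 1 array. The gamma subunit of the fetal receptor, Chrng, stayed at or below 24.1 on all arrays and Musk, the kinase that clusters receptors, at or below 81.0, so neither was tested. The number of endplate and denervation genes that rose was 3 without EAMG 2, EAMG 3, control 1 or control 2 and 5 without EAMG 1 or control 3.

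None of 24 genes for ion channels, pumps and calcium release passed limma (0 higher and 5 lower at an unadjusted p under 0.05). Read from the brightest probe set of each gene, the largest change was that of Camk2g, a kinase that reads calcium. It read 4397, 4028 and 2881 against 3161, 1468 and 2326, with overlapping groups and a log2 change of -0.75 (adjusted p = 0.0666, or 0.0292 with replicate numbers as blocks, 0.0136 without EAMG 1, 0.0367 without control 3 and 0.0353 with array weights). With the blocks 1 gene of the list fell, and without EAMG 1 or without control 3 2 fell. Camk2a, the related alpha kinase, read 1271, 1078 and 916 against 883, 735 and 679 at its brightest probe set, with separate groups and a log2 change of -0.50 (adjusted p = 0.274). Its dimmer probe set fell by 1.27 (adjusted p = 0.0194). In the dystrophin complex 1 of 10 genes rose and 0 fell (0 at an unadjusted p under 0.05). This was Lama2, a chain of muscle laminin, at 1449, 1871 and 992 against 2057, 2565 and 2255, with a log2 change of 0.72 (adjusted p = 0.0251). Of 17 myogenic factors 2 rose and 0 fell (3 at an unadjusted p under 0.05). Myf6, or MRF4, the myogenic factor of mature fibres, read 3753, 4929 and 6432 against 6985, 8446 and 9508 and rose by 0.75 on the log2 scale (SE 0.16, 1.68-fold, adjusted p = 0.0124). Vgll2, a muscle cofactor, rose by 0.57 (adjusted p = 0.0492). Lama2 did not pass without EAMG 2, EAMG 3, control 1 or control 3 (adjusted p = 0.0602 to 0.0978), nor with array weights (0.0848). Myf6 did not pass without EAMG 3 or control 1 (adjusted p = 0.0625 to 0.0631). Vgll2 did not pass without EAMG 2, EAMG 3, control 1 or control 2 (adjusted p = 0.123 to 0.184), nor with quantile normalization (0.0757), with the minimum set on all 18 arrays (0.0594) or without the low poly-A arrays (0.0585). Dystrophin complex genes that rose numbered 0 without EAMG 2, EAMG 3, control 1 or control 3, 1 without control 2 and 2 without EAMG 1, and myogenic factors that rose 0 without EAMG 3 or control 1, 1 without EAMG 2 or control 2, 2 without control 3 and 3 without EAMG 1. Myod1, a master factor of muscle cells named after its values were seen, had a log2 change of -0.76 (adjusted p = 0.0812) and passed with replicate numbers as blocks (adjusted p = 0.0379), and 1 myogenic factor fell without EAMG 1.

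Collagens and other genes of the extracellular matrix made up the largest group of falls. Of 40 tested 10 fell and 2 rose, with a median of -0.53. Col3a1, the chain of type III collagen, read 8917, 11359.9 and 4954 on the control and 4875, 2467 and 2423 on the EAMG arrays. It fell by 1.37 on the log2 scale (SE 0.30, 2.58-fold, adjusted p = 0.0135), and EAMG 1 was only just below control 3. Col1a1, a chain of type I collagen, read 6278, 5685 and 4366 against 3324, 1794 and 1704 and fell by 1.31 on the log2 scale (SE 0.31, 2.48-fold, adjusted p = 0.0192). Its second probe set fell by 1.41 (adjusted p = 0.0213). Col5a1, of type V collagen, and Mfap4, a protein of elastic fibres, fell by 1.25 and 1.15 (adjusted p = 0.0163 and 0.0325). Thbs4, a tendon thrombospondin, went up by 0.93 (adjusted p = 0.0323).

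The matrix genes were uneven among controls as well. Their median was 0.04, 0.30 and -0.31 on the control arrays and -0.25, -0.39 and -0.74 on the EAMG arrays, so control 3 lay below EAMG 1. Markers of fibroblasts and tendon moved in part with them, and their part in the falls was not tested. All 12 tested of 13 such markers on the array had a summed signal of 21640 to 31240 on the control arrays and 25170 to 26440 on the EAMG arrays, and their median was 0.15, 0.27 and -0.46 on the control arrays and -0.05, -0.08 and -0.55 on the EAMG arrays. Of these 12, Lum, a matrix proteoglycan, fell by 1.07 (adjusted p = 0.0247) and Thbs4 rose. The number of matrix genes that fell was 1 without EAMG 2, 2 without EAMG 3, control 1 or control 2, 15 without EAMG 1 and 18 without control 3, and the number that rose 1 without EAMG 2, EAMG 3, control 1 or control 2 and 2 without EAMG 1 or control 3. Fibroblast and tendon markers that fell numbered 0 without EAMG 2, EAMG 3, control 1 or control 2, 1 without EAMG 1 and 3 without control 3. Col3a1 did not pass without EAMG 2, EAMG 3, control 1 or control 2 (adjusted p = 0.0635 to 0.0683), and Col1a1 did not pass without EAMG 2, EAMG 3, control 1 or control 2 (adjusted p = 0.0635 to 0.0901). Col5a1 did not pass without EAMG 2, EAMG 3, control 1 or control 2 (adjusted p = 0.0585 to 0.0808). Mfap4 did not pass without EAMG 2, EAMG 3, control 1 or control 2 (adjusted p = 0.0597 to 0.137), nor with 100 added to each signal (0.0664). Thbs4 did not pass without EAMG 2, EAMG 3, control 1 or control 2 (adjusted p = 0.0576 to 0.143), and Lum did not pass without EAMG 2, EAMG 3, control 1 or control 2 (adjusted p = 0.0856 to 0.116).

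Further large falls were in single genes. Neu2, a sialidase of the cytosol that trims sialic acid from glycoproteins and gangliosides, read 1979, 1276 and 1506 on the control and 542, 215 and 509 on the EAMG arrays and fell by 2.00 on the log2 scale (SE 0.28, adjusted p = 0.00124). Marcks, an actin-binding substrate of protein kinase C, read 1603, 1821 and 947 against 712, 387 and 408 and fell by 1.54 on the log2 scale (SE 0.26, 2.91-fold, adjusted p = 0.00383). Of its other 3 probe sets 2 passed, at -1.21 (adjusted p = 0.0231) and -0.83 (adjusted p = 0.0124), and the fourth had -0.71 (adjusted p = 0.0505). Gpm6b, a membrane proteolipid, read 1442, 1153 and 1015 against 543, 382 and 474 and fell by 1.37 on the log2 scale (SE 0.17, 2.58-fold, adjusted p = 0.000886). Mdga1, an adhesion molecule anchored by a lipid, read 485, 485 and 294 against 229, 154 and 111 and fell by 1.38 on the log2 scale (SE 0.27, 2.60-fold, adjusted p = 0.00827). These 4 falls passed in every fit that left out 1 array.

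Nrep, a small protein first found in regenerating nerve, read 9408, 11956 and 10268 on the control and 5959.6, 2677 and 2771 on the EAMG arrays. It fell by 1.57 on the log2 scale (SE 0.35, 2.97-fold, adjusted p = 0.0143). Ky, a protease-like protein of the Z disc, read 8048, 7202 and 5990.1 against 5315, 1590.2 and 2639.7 and fell by 1.32 on the log2 scale (SE 0.33, 2.50-fold, adjusted p = 0.024). Id2, which blocks transcription factors of the basic helix-loop-helix kind, read 1635, 920.5 and 1024 against 602, 451 and 327 and fell by 1.37 on the log2 scale (SE 0.35, 2.59-fold, adjusted p = 0.0253). In each of these EAMG 1 was the EAMG array nearest to the controls. Lgi3, a secreted leucine-rich protein, fell by 1.47 (adjusted p = 0.0292), and the uncharacterized loci LOC100909396 and LOC102548331 by 1.67 and 1.27 (adjusted p = 0.0428 and 0.0176). The transcript 1398445_at, without a symbol, read 433, 741 and 1074 against 291, 158 and 228 and fell by 1.68 (adjusted p = 0.00909). Nrep did not pass without EAMG 2, EAMG 3 or control 2 (adjusted p = 0.0557 to 0.0701), and Ky did not pass without EAMG 2, EAMG 3, control 1 or control 2 (adjusted p = 0.073 to 0.101). Id2 did not pass without EAMG 2, EAMG 3 or control 1 (adjusted p = 0.074 to 0.12), nor with array weights (0.051). Lgi3 did not pass without EAMG 2, EAMG 3, control 1, control 2 or control 3 (adjusted p = 0.0598 to 0.125). LOC100909396 did not pass without EAMG 2, EAMG 3, control 1, control 2 or control 3 (adjusted p = 0.0761 to 0.152), nor with array weights (0.0699), with a trended prior (0.0641) or with the minimum set on all 18 arrays (0.0532). LOC102548331 did not pass without EAMG 2, control 1 or control 2 (adjusted p = 0.051 to 0.0825).

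Growth signalling genes changed in both directions. Among 28 genes of the IGF, insulin and mTOR pathways 4 rose and 3 fell, with a median of 0.08. Ddit4, Sesn1 and Eif4ebp1, which rose, encode brakes on mTORC1 or on translation. Igfbp5, which binds insulin-like growth factors, read 3497, 3524 and 3133 on the control and 1826, 1923 and 1099 on the EAMG arrays and fell by 1.11 on the log2 scale (SE 0.22, 2.15-fold, adjusted p = 0.00909). Its second probe set fell by 1.56 (adjusted p = 0.0359). Of 24 genes of TGF-beta, BMP and myostatin signalling 4 rose (16.7%, beside 4.47% of all genes) and 1 fell (4.17%, beside 3.68%). Smad7, an inhibitor of these receptors, read 111, 178 and 72.0 against 211, 253 and 494 and rose by 1.40 on the log2 scale (SE 0.37, 2.64-fold, adjusted p = 0.0308). Only EAMG 3 reached the signal minimum for Smad7, which did not pass without that minimum (adjusted p = 0.141). Tgif1, a repressor of Smad targets, and Smad4, the shared partner of the Smads, rose by 1.34 and 0.54 (adjusted p = 0.0418 and 0.0404). Smad7 did not pass without EAMG 2, EAMG 3, control 1 or control 3 (adjusted p = 0.0652 to 0.14), nor with array weights (0.107). Tgif1 did not pass without EAMG 2, EAMG 3, control 1, control 2 or control 3 (adjusted p = 0.054 to 0.178), nor with the minimum set on all 18 arrays (0.0521) or without the low poly-A arrays (0.0529). Smad4 did not pass without EAMG 2, EAMG 3, control 1, control 2 or control 3 (adjusted p = 0.0519 to 0.171), nor with quantile normalization (0.0515). Genes of the IGF, insulin and mTOR list that rose numbered 2 without EAMG 2, EAMG 3 or control 1, 4 without control 2 and 5 without EAMG 1 or control 3, and those that fell 1 without EAMG 2, EAMG 3 or control 1, 2 without control 2 and 3 without EAMG 1 or control 3. TGF-beta list members that rose numbered 0 without EAMG 2, EAMG 3, control 1 or control 3, 1 without control 2 and 4 without EAMG 1, and those that fell 0 without EAMG 2, EAMG 3 or control 1, 1 without EAMG 1 or control 2 and 2 without control 3.

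Of 27 heat shock genes and chaperones 4 rose and 2 fell. Hspb7, a small heat shock protein of muscle, read 4175, 4879 and 4124 on the control and 7707, 15467 and 8287 on the EAMG arrays and rose by 1.19 on the log2 scale (SE 0.19, 2.27-fold, adjusted p = 0.00267). It was highest on EAMG 2 and passed without that array (adjusted p = 0.00303). Hspb1, which guards the Z disc and actin, and Hsf1, the factor that switches on heat shock genes, rose by 0.72 and 0.53 (adjusted p = 0.0186 and 0.0179). Dnajb6, a cochaperone of the Z disc, read 5612, 4067 and 3826 against 2519, 2818 and 2126 and fell by 0.84 on the log2 scale (SE 0.19, 1.79-fold, adjusted p = 0.0163). Of the cytosolic ribosomal proteins 5 of 42 rose and 0 fell (1 at an unadjusted p under 0.05), with a median of 0.19. Rps3, of the small subunit, read 6857, 9087 and 8804 against 11673, 14821 and 12441 and rose by 0.66 (adjusted p = 0.0078). The number of ribosomal genes that rose was 1 without EAMG 2, control 1 or control 2, 2 without EAMG 3, 8 without EAMG 1 and 9 without control 3. Hspb1 did not pass without EAMG 2, EAMG 3, control 1 or control 2 (adjusted p = 0.0616 to 0.0839), and Hsf1 did not pass without EAMG 2 or control 1 (adjusted p = 0.0719 to 0.0769). Dnajb6 did not pass without EAMG 3 or control 1 (adjusted p = 0.0762 to 0.0834). Heat shock genes and chaperones that rose numbered 1 without EAMG 2 or control 1, 2 without EAMG 3 or control 2, 3 without control 3 and 6 without EAMG 1, and those that fell 0 without EAMG 3 or control 1, 1 without EAMG 2 or control 2 and 2 without EAMG 1 or control 3.

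Few markers of immune cells reached the signal minimum in EDL. Of 23 macrophage markers on the array 8 reached 400 and 0 passed (0 higher and 1 lower at an unadjusted p under 0.05), with a summed signal of 3652 to 7680 on the control arrays and 4712 to 9563 on the EAMG arrays. Gpnmb, a glycoprotein of activated macrophages, read 279, 242 and 92.6 against 383, 617 and 508, with a log2 change of 1.42 (SE 0.72, adjusted p = 0.224). Cd68, their defining marker, stayed at or below 146 on every array. Among 19 lymphocyte markers 2 were tested, with a summed signal of 2017 to 2497 on the control arrays and 2028 to 2252 on the EAMG arrays. Cd3d, a chain of the T cell receptor, stayed at or below 25.2 and Cd79b, of the B cell receptor, at or below 40.6. Gimap4, a GTPase of lymphocytes, read 383, 417 and 429 against 193, 197 and 223 and fell by 1.00 on the log2 scale (SE 0.14, 2.00-fold, adjusted p = 0.00101), and the groups were far apart. The other lymphocyte marker tested did not pass, with a log2 change of 0.03.

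Nfkbia, the inhibitor that holds NF-kB in the cytosol and itself a glucocorticoid target, read 763, 1084 and 944 on the control and 2548, 2614 and 2606 on the EAMG arrays. It rose by 1.49 on the log2 scale (SE 0.19, 2.81-fold, adjusted p = 0.000886), with nearly equal EAMG arrays. Tnfrsf12a, or Fn14, the receptor of the cytokine TWEAK, read 416, 630.3 and 752 against 1328, 1245 and 1763 and rose by 1.29 on the log2 scale (SE 0.25, 2.45-fold, adjusted p = 0.00741). These were the 2 of 12 NF-kB genes that rose (2 without EAMG 2, EAMG 3, control 1, control 2 or control 3 and 3 without EAMG 1), and 0 fell (1 at an unadjusted p under 0.05). Of 12 interferon and antigen presentation genes 1 rose and 1 fell. Oas1a, an antiviral enzyme, read 213, 329 and 297 against 541, 613 and 539.7 and rose by 1.03 on the log2 scale (SE 0.18, 2.05-fold, adjusted p = 0.00497), and Cd1d1, which presents lipids, fell by 0.79 (adjusted p = 0.00879, or 0.0515 without control 1). Genes of this list that fell numbered 0 without control 1, 1 without EAMG 2, EAMG 3, control 2 or control 3 and 2 without EAMG 1, and 2 with replicate numbers as blocks, where Stat3, a cytokine factor named after its values were seen, passed as well (log2 change -0.76, adjusted p = 0.0814, blocked 0.0461). Of 12 complement genes 2 fell and 0 rose (0 at an unadjusted p under 0.05). Both guard cells against complement. Cd55, the decay-accelerating factor, read 2495, 2592 and 2394 against 1662, 1399 and 1798 and fell by 0.63 on the log2 scale (SE 0.14, 1.55-fold, adjusted p = 0.0132). Cd59b, which blocks the membrane attack complex, read 6204, 6626 and 6807 against 5098, 5108 and 4939 and fell by 0.37 (adjusted p = 0.047, or 0.0526 with replicate numbers as blocks). Cd55 did not pass without EAMG 2, control 1 or control 2 (adjusted p = 0.051 to 0.0652). Cd59b did not pass when any 1 EDL array was left out (adjusted p = 0.0597 to 0.134), nor with array weights (0.0525), with the minimum set on all 18 arrays (0.0558) or without the low poly-A arrays (0.055). Complement genes that fell numbered 0 without EAMG 2, control 1 or control 2 and 1 without EAMG 1, EAMG 3 or control 3, and 1 with the blocks.

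Genes of red blood cells and some of vessels fell. Hbb, the beta chain of hemoglobin, read 3181, 4898 and 3269.9 on the control and 1636, 2445 and 999 on the EAMG arrays and fell by 1.22 on the log2 scale (SE 0.36, 2.34-fold, adjusted p = 0.0465). Hba-a3, an alpha chain with close copies that may share its probes, read 603, 492 and 393 against 198, 230 and 235 and fell by 1.15 on the log2 scale (SE 0.27, 2.21-fold, adjusted p = 0.0186). The groups did not overlap in either. Alas2, which makes heme in red cells, was too dim to be tested, at 167, 195 and 204 against 91.6, 109 and 78.8. The 2 red cell markers tested, of 7 on the array, had a summed signal of 3917 to 5786 on the control arrays and 1460 to 2983 on the EAMG arrays. Of 17 endothelial markers 3 fell and 1 rose, with a summed signal of 17010 to 21100 on the control arrays and 15680 to 17270 on the EAMG arrays. Aplnr, the receptor of apelin, Emcn, a surface mucin, and Cxcl12, a chemokine, fell by 0.98, 0.66 and 0.57 (adjusted p = 0.0428, 0.0127 and 0.0358). Cldn5, a protein of tight junctions, rose by 0.75 (adjusted p = 0.0124). Hbb did not pass without EAMG 1, EAMG 3, control 1, control 2 or control 3 (adjusted p = 0.0561 to 0.194), nor with quantile normalization (0.0527) or with the minimum set on all 18 arrays (0.0572). Hba-a3 did not pass without EAMG 2, EAMG 3, control 1 or control 2 (adjusted p = 0.0538 to 0.0895). Aplnr did not pass without EAMG 1, EAMG 2, EAMG 3, control 1 or control 2 (adjusted p = 0.0518 to 0.184), nor with quantile normalization (0.0532), with the minimum set on all 18 arrays (0.0529) or without the low poly-A arrays (0.0564). Emcn did not pass without EAMG 2, control 1 or control 2 (adjusted p = 0.0504 to 0.0651), and Cxcl12 did not pass without EAMG 2, EAMG 3, control 1 or control 2 (adjusted p = 0.082 to 0.133). Cldn5 did not pass without EAMG 3 (adjusted p = 0.0627). Endothelial markers that fell numbered 0 without EAMG 2, control 1 or control 2, 1 without EAMG 3, 2 without EAMG 1 and 4 without control 3.

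**Figure D5:**
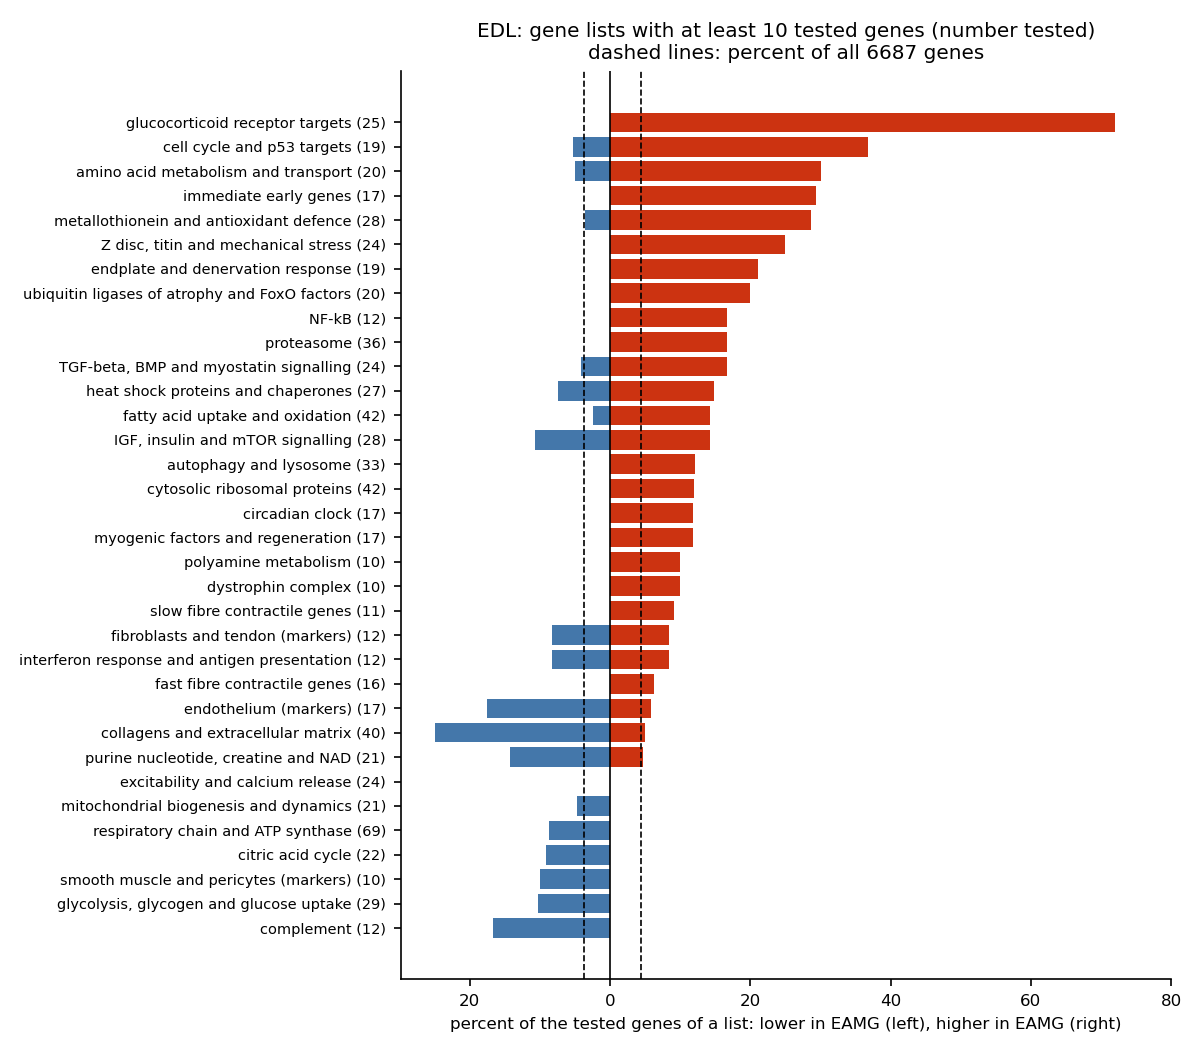
Share of the tested genes of each list that passed as lower (blue, left) or higher (red, right) in EDL, for lists with at least 10 tested genes. The x axis is a percentage, numbers in parentheses are genes tested, and dashed lines mark 3.68% lower and 4.47% higher over all genes. The glucocorticoid targets have the largest share of rises, 72%, and the collagens and matrix genes the largest share of falls, 25%.

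Of 16 fast fibre genes 1 rose (6.25%, beside 4.47% of all genes) and 0 fell (2 at an unadjusted p under 0.05), with a median of -0.13. Myh4 read 45958, 37864 and 37973 on the control and 34713, 32051 and 35399.5 on the EAMG arrays, and Pvalb, the calcium buffer parvalbumin, 45532, 35593 and 37207 against 33175, 29699 and 30058. Control 1 was the highest array for both. Their log2 changes were -0.25 (SE 0.31, adjusted p = 0.659) and -0.34 (SE 0.15, adjusted p = 0.17). Myh1, the myosin heavy chain of another fast fibre type, read 21323, 19476 and 18385 against 16253, 13710.1 and 16688 at its brightest probe set, with every EAMG array below every control array and a log2 change of -0.35 (adjusted p = 0.0907, or 0.044 with quantile normalization). Its other probe sets had log2 changes of -0.44, -0.45, -0.45 and -0.48 (adjusted p = 0.0469, 0.0538, 0.0797 and 0.259), so 1 of its 5 probe sets passed. Smtnl1, a smoothelin-like regulator, was the one fast fibre gene whose brightest probe set passed, at 0.49 (adjusted p = 0.0437). Of 11 slow fibre genes 1 rose and 0 fell (0 at an unadjusted p under 0.05), and their median of 0.51 was 0.04 without EAMG 2. Myoz2, a calcineurin-binding protein of the Z disc, read 12023, 15947 and 12247 against 16296, 34427 and 20049 and rose by 0.75 on the log2 scale (SE 0.20, 1.69-fold, adjusted p = 0.0328), and its change without EAMG 2 was 0.44. Smtnl1 did not pass without EAMG 2, EAMG 3, control 1, control 2 or control 3 (adjusted p = 0.0578 to 0.173), nor with the minimum set on all 18 arrays (0.0531) or without the low poly-A arrays (0.0534). Myoz2 did not pass without EAMG 2, EAMG 3, control 1 or control 3 (adjusted p = 0.0652 to 0.123), nor with array weights (0.0594). Slow fibre genes that rose numbered 0 without EAMG 2, EAMG 3, control 1 or control 3, 1 without control 2 and 3 without EAMG 1.

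The EDL response was set against the mean of the DIA and EOM responses by a test of the difference in the same fit. It differed in 7 probe sets (0.0676% of those tested), and 869 had an unadjusted p under 0.05. Cdkn1a changed by 2.59 on the log2 scale in EDL, 1.30 in DIA and 0.77 in EOM, a difference of 1.56 (SE 0.23, adjusted p = 0.0167). Dipk2a, a secreted kinase-like protein, read 461, 469 and 419.8 on the EDL control and 307, 315 and 269.5 on the EDL EAMG arrays. It changed by -0.60 in EDL (adjusted p = 0.00251), -0.13 in DIA and 0.61 in EOM, a difference of -0.84 (SE 0.11, adjusted p = 0.0101). Akip1, which binds protein kinase A, differed in 4 probe sets, by -1.12 to -1.23. Its brightest probe set read 1472, 1706 and 1519.6 against 1519.7, 1128 and 1207 in EDL, where its change of -0.29 did not pass (adjusted p = 0.184), and it changed by 0.60 in DIA and 1.25 in EOM. The last was 1390021_at, a transcript without a symbol named after its values were seen, with a difference of 0.87 (SE 0.14, adjusted p = 0.0337). The number of probe sets that differed was 37 without EAMG 1, 4 without EAMG 2, 7 without EAMG 3 or control 3, and 0 without control 1 or control 2 (595 and 681 at an unadjusted p under 0.05), and 0 without the arrays DIA EAMG 2 and EOM EAMG 2, those of low poly-A signal (930 at an unadjusted p under 0.05).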

How the data were processed

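Rat muscle RNA was hybridized to Affymetrix RAE230 arrays. The authors deposited GCOS 2.0 signal intensities on a linear scale, made from the probe intensities and scaled on each array to one target, so the mean of each deposited column after trimming 2% at both ends is close to 500. The change calls and pairwise ratios that GCOS also gives are not in the values used here. The groups came from the sample titles, with exp read as EAMG and ctrl as control.

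Signals were put on the log2 scale and fitted with limma 3.58.1 in R 4.3.3, with 1 mean for each of the 6 groups (12 residual and 3.57 prior degrees of freedom). All adjusted p values are from limma's moderated test with Benjamini-Hochberg adjustment over the 10348 probe sets with a signal of at least 400 on 1 or more EDL arrays, and "passed", "rose" and "fell" mean an adjusted p under 0.05. A permutation of 3 against 3 arrays cannot give a two-sided p under 0.1. Changes of low signals are uncertain on the log2 scale, so 100 was added to each signal as an alternative. The number of arrays limits the precision.

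Of 31042 probe sets other than controls, 20826 had 1 gene symbol in the platform annotation, 436 had several and 9780 had none. A gene was read from its brightest probe set tested, and a gene in several lists counts in each. The genes named are the 15 largest rises and falls with separate groups, the largest changes without a symbol and the largest differences between muscles. From each list up to 4 members that passed were taken by size of change in either direction, or 2 where none passed. Fibre and marker genes, and genes that the paper on these arrays had reported, could be named whatever their change. Errfi1, Enc1 and Chrna1 were named only as such reported genes. Others of these, such as Dyrk2 and Pde4b, did not pass at their brightest probe sets (log2 change -0.57 and 0.69, adjusted p = 0.0878 and 0.129). A dimmer probe set of Dyrk2 had a log2 change of -1.33 (adjusted p = 0.0251). The EDL arrays, the signal minimum and the 40 gene lists (1058 of 1162 entries matched) were chosen with earlier results of these data known.

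The replicate numbers were taken to pair control and EAMG arrays, since the study was repeated to give its replicates, but no label states this pairing. Deviations of same-numbered arrays from their group means had r = 0.264, 0.158 and 0.402 over the probe sets tested. Those of arrays with unlike numbers had r from -0.294 to 0.132, the highest for control 2 with EAMG 1. Deviations within 3 arrays sum to 0, so these values depend on each other. The main fit did not use the pairing. Data were simulated for the EDL comparison with 200 of 10348 probe sets changed. The fit recovered 77.5% of falls and 72.5% of rises of 1 on the log2 scale, and 97.5% of rises of 2. Of changes of 0.5 it recovered 27.5% of falls and 22.5% of rises, and it made 5 false calls. The simulated noise was normal and independent between arrays, with 1 spread for each probe set over the 6 groups. It held no outlying array such as EAMG 2, so recovery in the real arrays can differ. The alternatives tried were the EDL arrays alone, replicate blocks, array weights, a trended prior, quantile normalization, other signal minimums, each EDL array left out, the low poly-A arrays left out, and a rule of at least 7 of 9 array ratios of 2-fold. Figures were drawn with matplotlib 3.10.9 in Python 3.11.15.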

Additional observations from a re-analysis of the deposited data

Results flagged for a closer look

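The change in EAMG differed between EDL and the mean of the diaphragm and extraocular muscles in 7 probe sets by limma's test of the difference of changes. The EDL change of Cdkn1a (1388674_at) was higher by 1.557 (adjusted p = 0.0167) on the log2 scale. That of Dipk2a (1389199_at) was lower, at -0.8425 (adjusted p = 0.0101). For Akip1 the differences were -1.157 (adjusted p = 0.0278) at 1383175_a_at, -1.124 (adjusted p = 0.0445) at 1383176_at, -1.232 (adjusted p = 0.0101) at 1385458_a_at and -1.216 (adjusted p = 0.0101) at 1392938_s_at. The transcript 1390021_at, without a symbol, differed by 0.8667 (adjusted p = 0.0337). None of the 7 passed without EDL control 1 or without EDL control 2 (595 and 681 probe sets at an unadjusted p under 0.05).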

How the results depend on the processing

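Counts here are of probe sets by limma, against 439 higher and 421 lower in EDL, 111 and 98 by at least 2-fold, and 7 that differed from the other muscles. Leaving out 1 EDL array gave 125 to 660 higher and 91 to 706 lower, 55 to 179 and 28 to 231 by at least 2-fold, and 0 to 37 that differed, lowest without control 1 (0 differed without control 2 as well) and highest without EAMG 1. The EDL arrays alone gave 7 higher and 0 lower, with the same 7 and 0 by at least 2-fold, and without EAMG 2 as well 3 and 0, with 3 and 0 by at least 2-fold. In the EDL arrays alone with replicate numbers as blocks, a setting chosen after seeing the data, 184 were higher and 191 lower. The pairing used as a block in all 18 arrays gave 568 higher and 568 lower, changed the call of 3 genes that the naming rule gave (Capn2, Camk2g and Cd59b), and moved no count of a list by over 1.5 times other than those given with their results. Without a signal minimum there were 76 higher and 82 lower, 62 and 55 by at least 2-fold, and 0 that differed (2031 at an unadjusted p under 0.05). Adding 100 to each signal left 59 lower by at least 2-fold. At least 7 of 9 array ratios of 2-fold held for 53 higher and 33 lower probe sets, 76 of which limma also called. Array weights gave 13 that differed, a trended prior 11, and the fit without the low poly-A arrays 0 (930 at an unadjusted p under 0.05). Quantile normalization and the other signal minimums moved none of these counts by over 1.5 times, but ended the calls of the single genes given above. Some fibre genes that passed in no setting turned direction on the log2 scale. Over the fits that left out 1 array the slow fibre genes ran from -0.0860 to 1.11 for Tnnt1, -0.0877 to 0.831 for Myl3, -0.0946 to 0.747 for Atp2a2 and -0.117 to 0.711 for Tnni1, below 0 only without EAMG 2, with the same values in the EDL arrays alone without it. The fast fibre genes ran from -0.141 to 0.0648 for Myl11, -0.156 to 0.0231 for Myh2, -0.148 to 0.00605 for Tnnt3, -0.169 to 0.0118 for Actn3, -0.195 to 0.0155 for Atp2a1 and -0.189 to 0.00260 for Tnnc2, above 0 only without control 1. With quantile normalization Myl11 was at 0.0302, Actn3 at 0.0256 and Atp2a1 at 0.00196. No named gene that passed turned direction, which for 115 of the 116 the separate groups fix in the fits that left out 1 array. In directions in which a list had 0 calls, 1 glycolysis gene rose and 1 Z disc gene fell without EAMG 1, and 1 endplate gene fell without control 3. In none of these cases was the cause tested, beyond the fewer arrays or the larger number of probe sets in the fit. Changes of about 0.5 on the log2 scale were recovered in only 22.5% to 27.5% of simulated cases at this number of arrays. The simulated noise was simpler than that of the real arrays, but many such changes can be missed. Signals under 400 were not tested.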

Other observations

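Some gene groups of EDL belong to none of the comparisons above. Of 17 clock genes 2 rose and 0 fell (1 at an unadjusted p under 0.05). They were Nfil3 and Per1, a repressor of the clock that glucocorticoids also induce, at 431, 565 and 624 on the control and 862, 878 and 726 on the EAMG arrays, with a log2 change of 0.62 (adjusted p = 0.0333). Per1 did not pass without EAMG 1, EAMG 2, EAMG 3, control 1 or control 2 (adjusted p = 0.0558 to 0.151). Bhlhe41, another clock repressor, chosen after its values were seen, read 6082, 4289 and 4493 against 3983, 1964 and 1546 with a log2 change of -1.09 (adjusted p = 0.0667), and passed with replicate numbers as blocks (adjusted p = 0.0168), so that 1 clock gene then fell. Clock genes that rose numbered 0 without EAMG 3 or control 1, 1 without EAMG 1, EAMG 2 or control 2 and 2 without control 3. Of 10 polyamine genes 1 rose and 0 fell (2 at an unadjusted p under 0.05). This was Sat1, which starts the breakdown of polyamines, at 1286, 1503 and 1269 against 1645, 2873 and 2246 (log2 change 0.70, adjusted p = 0.0384). Sat1 did not pass without EAMG 2, EAMG 3, control 1, control 2 or control 3 (adjusted p = 0.0674 to 0.159), nor with array weights (0.0595) or with quantile normalization (0.0522). Polyamine genes that rose numbered 0 without EAMG 2, EAMG 3, control 1 or control 2 and 1 without EAMG 1 or control 3, and 2 with the blocks, where Sat2, its relative, named after its values were seen, passed as well (log2 change 0.81, adjusted p = 0.0549, blocked 0.0295).

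Markers of fat, nerve and smooth muscle cells were also read. Of 13 adipocyte markers 7 were tested, with a summed signal of 6805 to 8924 on the control arrays and 7702 to 12480 on the EAMG arrays. Cidea, a protein of lipid droplets, rose from 147, 149 and 134 to 174, 444 and 359 (log2 change 1.08, adjusted p = 0.0209). Only EAMG 2 reached the signal minimum, without which Cidea did not pass (adjusted p = 0.116). Cidea did not pass without EAMG 2, EAMG 3, control 1 or control 2 (adjusted p = 0.0572 to 0.0949). Scd, which makes unsaturated fatty acids, was chosen after its values were seen. It read 274, 429 and 159 against 104, 16.2 and 14.0, with every EAMG array below every control array, and a log2 change of -3.21 (adjusted p = 0.062, or 0.0309 with replicate numbers as blocks). With the blocks 2 adipocyte markers rose and 1 fell, against 1 and 0, the added rise being that of Dgat2, which makes triglyceride (log2 change 0.90, adjusted p = 0.104, blocked 0.0402). None of 5 Schwann cell markers tested passed limma (0 at an unadjusted p under 0.05), with a summed signal of 4096 to 8867 on the control arrays and 5546 to 6432 on the EAMG arrays. Of 10 markers of smooth muscle and pericytes 1 fell, with a summed signal of 36630 to 38680 on the control arrays and 37460 to 37680 on the EAMG arrays. This was Smtn, which binds actin in smooth muscle, at 1261, 1376 and 970.3 against 831, 814 and 651 (log2 change -0.64, adjusted p = 0.0124). Smtn did not pass without EAMG 3, control 1 or control 2 (adjusted p = 0.0585 to 0.0625).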
